A study of Mus musculus with 4 samples.

Results

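The sarcoglycan genes examined here were Sgca, Sgcb, Sgcd, Sgce and Sgcz, 5 of 21887 protein-coding mouse genes on the main chromosomes, and they were chosen by name. They were chosen with their coverage by H3K9me3 peaks already known, so the values below describe them and carry no test. Sarcoglycans are membrane proteins of the dystrophin-glycoprotein complex, which ties the actin skeleton of a muscle fibre to the matrix around it. Alpha, beta and delta sarcoglycan belong to the complex of skeletal and heart muscle, and loss of any of them causes limb-girdle muscular dystrophy. Epsilon sarcoglycan resembles alpha and is made in many tissues, and zeta sarcoglycan resembles delta. H3K9me3, trimethylation of lysine 9 of histone H3, marks silenced chromatin, and Setdb1 encodes 1 of the enzymes that deposit it.

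The mark was profiled by chromatin immunoprecipitation and sequencing in muscle stem cells, the Pax7-expressing cells that rebuild muscle, isolated from mice by magnetic sorting and grown in culture. The control culture received ethanol for 72 h and its genotype was labelled Setdb1lox/lox;Pax7GakaCreERT2. The other culture received 4-hydroxytamoxifen for 72 h, to induce Setdb1 deletion, and was labelled Setdb1lox/lox;Pax7GakaCreERT3. Both labels name floxed Setdb1 alleles and a Cre under Pax7. The number that ends the Cre name is different in every sample of the series, inputs included, and whether it marks different Cre lines is not given in the sources used here. The labels state no strain, age, sex or number of animals. Each condition had 1 H3K9me3 library and 1 input library. The inputs were not analysed here. With 1 library per condition no difference has a replicate check, and treatment, culture and sequencing depth cannot be told apart. Fewer cells carrying the mark and less of the mark per cell cannot be told apart either.

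There were 105709 control peaks on the main chromosomes, and 113503 in the list from the treated culture, called the deleted list. Read depth is unknown. The window of Setdb1 itself held 1 control peak and 0 deleted-list peaks, and this is no measure of its deletion. No peak lay in the windows of 6 marker genes of muscle stem cells (Pax7, Myf5, Myod1, Vcam1, Itga7 and Cdh15) in either list. Among 5 marker genes of other cells of muscle (Pdgfra, Pecam1, Ptprc, Cdh5 and Acta2), 0 had a control peak and 1, Ptprc, had a deleted-list peak, which covered 0.753% of its window. Peaks of this mark do not measure expression, so these values do not test the identity of the cells.

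The family split into peak-free and heavily covered genes. Sgca, Sgcb and Sgce had no H3K9me3 peak in the gene or within 5 kb of it, in either list. Sgcd and Sgcz, each over a megabase long, were crossed by peaks from end to end in both lists. Control peaks covered 25.0% of the Sgcz window and deleted-list peaks 22.7%. Sgcd was covered at 13.0% and 17.8%. Over all protein-coding genes, 64.6% of windows held no peak in either list. That share was 70% among genes under 100 kb and 0.881% among genes of 500 kb or more. Of the long genes, 97.8% held a control peak and 96.9% a deleted-list peak. Sgcd and Sgcz are the longest of the 5.

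**Figure D1:**
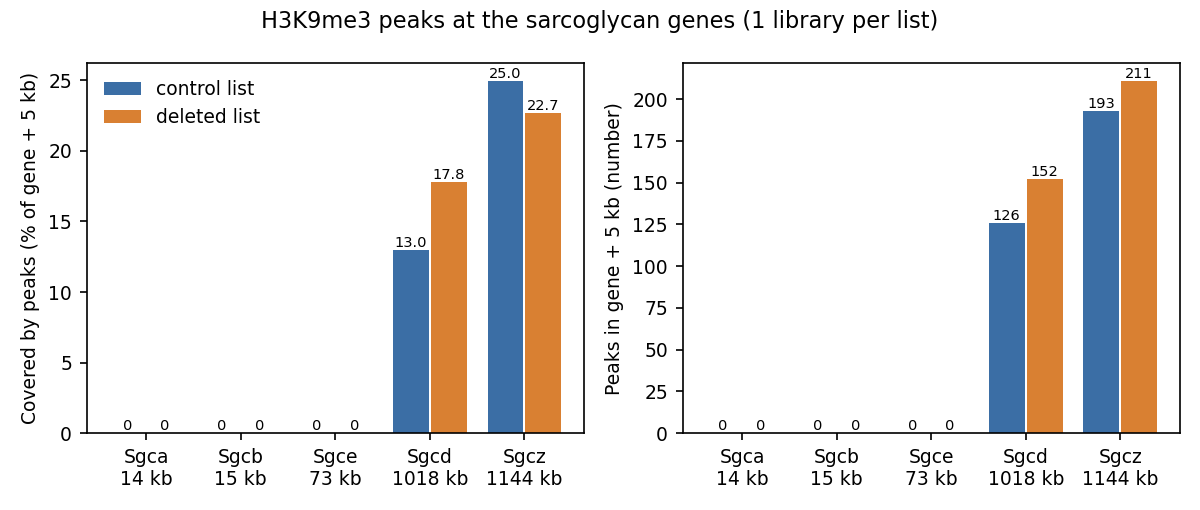
Left, percent of each sarcoglycan gene plus 5 kb on both sides that was covered by H3K9me3 peaks; right, the number of peaks in the same window; bars are single libraries (control list and deleted list), so they carry no error. Sgca, Sgcb and Sgce stand at 0 in both lists, Sgcd stands at 13.0% and 17.8% and Sgcz at 25.0% and 22.7%.

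RefSeq (GRCm38.p6) start sites were matched for 3 of the 5 genes, Sgca, Sgcb and Sgcd. The 250 bases before each start are shown. All of them were free of peaks in both lists, including the stretch inside the covered gene Sgcd. The share of all such stretches that were free of peaks was not counted. The printed bases are read 5′ to 3′ on the minus strand of the chromosome, which is the strand of all 3 genes. Capitals mark CG dinucleotides, the sites of DNA methylation.
Sgca, chr11:94976328-94976577: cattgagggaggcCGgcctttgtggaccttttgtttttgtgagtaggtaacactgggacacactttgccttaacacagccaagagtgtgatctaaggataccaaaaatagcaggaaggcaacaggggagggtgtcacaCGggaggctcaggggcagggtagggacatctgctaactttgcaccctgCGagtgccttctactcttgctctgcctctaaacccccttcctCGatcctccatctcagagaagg
Sgcb, chr5:73647738-73647987: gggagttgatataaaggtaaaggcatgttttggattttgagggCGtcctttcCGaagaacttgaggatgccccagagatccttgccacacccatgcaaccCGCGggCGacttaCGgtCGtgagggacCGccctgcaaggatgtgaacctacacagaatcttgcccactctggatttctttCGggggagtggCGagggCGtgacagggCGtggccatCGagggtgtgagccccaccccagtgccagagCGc
Sgcd, chr11:47379326-47379575: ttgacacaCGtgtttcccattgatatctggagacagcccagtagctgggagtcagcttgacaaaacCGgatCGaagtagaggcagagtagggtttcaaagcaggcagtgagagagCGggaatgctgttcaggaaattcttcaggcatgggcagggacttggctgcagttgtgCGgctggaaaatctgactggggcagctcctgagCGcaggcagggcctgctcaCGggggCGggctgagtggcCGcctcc
The Sgca stretch held 4 CG dinucleotides, Sgcb 14 and Sgcd 9, against a median of 6 over 32851 such stretches in the RefSeq table. As many CG as in Sgcb or more were found in 29.4% of all stretches, and as many as in Sgca or more in 62.2%. G and C made up 52.8% of the bases in Sgca, 58.4% in Sgcb and 58% in Sgcd, where the median was 52.4%. The E-box CANNTG, the letters that muscle transcription factors such as MyoD bind, reads the same on both strands. It occurred 1 time in Sgca, 0 times in Sgcb and 2 times in Sgcd, and 66.2% of all stretches held at least 1.

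Sgca encodes alpha sarcoglycan, a member found in skeletal and heart muscle. It spans 13.6 kb on chromosome 11 from 94962777 to 94976327. The nearest control peak lay 58.2 kb below it and the next 575 kb above it. In the deleted list the distances were 62.3 kb and 577 kb. The gene therefore sat in a peak-free stretch of 647 kb in the control and 653 kb in the deleted list. Its neighbours Col1a1, a collagen gene 9.73 kb below, and Ppp1r9b, 14.9 kb above, had no peak in their windows either. Hils1, a gene that lies inside Sgca, was also free of peaks.

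Sgcb encodes beta sarcoglycan and spans 15.0 kb on chromosome 5 from 73632749 to 73647737. In the control list a peak came closer to this gene than to Sgca or Sgce, and in the deleted list the nearest peak was closer to Sgce. A control peak of 326 bp lay 11.9 kb above it and had no partner in the deleted list. A deleted-list peak of 478 bp lay 26.4 kb below it and had no control partner. That peak had the authors' −log10 q of 3.48. These peaks touched the windows of both neighbours. Spata18, 3.64 kb above, was covered at 0.853% in the control and 0% in the deleted list. Lrrc66, 0.327 kb below, was covered at 0% and 1.34%. The peak-free stretch around Sgcb was 75.8 kb and 90.5 kb.

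Sgce, an imprinted gene expressed from the paternal copy, encodes epsilon sarcoglycan, and mutations of it cause myoclonus-dystonia in people. It spans 72.9 kb on chromosome 6 from 4674350 to 4747204. Its neighbour Peg10, 0.101 kb above and also imprinted, had no peak in its window in either list, and neither did Casd1, 31.0 kb below. Above the gene the nearest peak was shared by both lists, at 21.3 kb in the control and 22.0 kb in the deleted list. Below it the nearest control peak was 137 kb away and the nearest deleted-list peak 409.7 kb away. Within 1 Mb on both sides of Sgce the control list had 38 peaks and the deleted list 26. Covered length over the whole of chromosome 6 was 15.3 Mb and 7.73 Mb, a ratio of 0.504, so the thinner surroundings moved with the whole chromosome, and what this contributes to them was not tested.

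The plot of nearest peaks shows the peak-free stretch around each of these 3 genes.

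**Figure D2:**
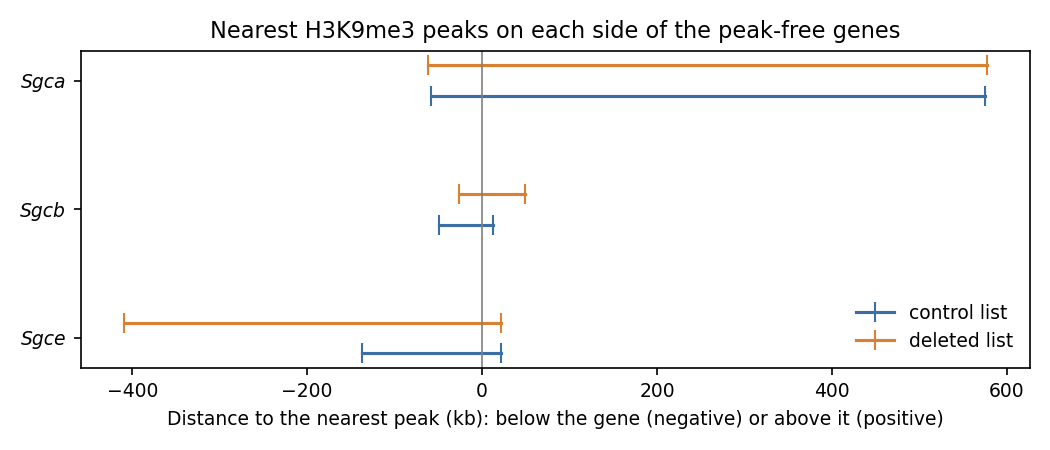
Distance in kb from each peak-free sarcoglycan gene to the nearest H3K9me3 peak below it (negative) and above it (positive), with 1 line per list drawn between the 2 peaks and the gene itself at 0. Sgca has the longest stretch, 647 kb in the control list, and Sgcb the shortest, 75.8 kb.

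Sgcz, which encodes zeta sarcoglycan, was the most covered member. It spans 1144 kb on chromosome 8 from 37517840 to 38661705, and RefSeq places no other protein-coding gene inside it. Its window held 193 control peaks and 211 deleted-list peaks. Together they covered 288 kb and 262 kb. Covered percent was lower in the deleted list by 2.31 points, a deleted-to-control ratio of 0.908. The same ratio over the whole of chromosome 8 was 1.04. Among genes of 500 kb or more, 25 of 162 covered at 1% or more in a list (15.4%) were at least 1.5 times less covered in the deleted list and 32 (19.8%) at least 1.5 times more. With all deposited peaks neither Sgcz nor Sgcd passed that limit. Sgcz passed it with peaks at −log10 q of 2 or more, which covered 3.22% in the control and 1.32% in the deleted list. It also passed with peaks at or above their list's median fold, which covered 12.1% and 7.36%. How many long genes passed under these filters was not counted. Over the whole lists 18.8% of control peaks and 11.5% of deleted-list peaks reached that q. Sgcz ranked eighth in the control and fourteenth in the deleted list of 227 such genes, of which 45 (19.8%) and 47 (20.7%) were covered at 10% or more.

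Coverage of Sgcz was high against its surroundings. The megabase below the gene, towards lower coordinates, was covered at 13.5% in both lists. The megabase above was covered at 10.9% and 10.4%. The nearest protein-coding genes lay far off and carried little of the mark. AI429214, 522 kb below, had no peak, and Tusc3, 344 kb above, was covered at 0.474% and 0.916%. Within Sgcz the peaks were dense, with a median gap of 3.27 kb in the control and 2.60 kb in the deleted list. The longest gap was 17.2 kb in the control list, and 33.0 kb in the deleted list from 38533750 to 38566729.

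Beneath the similar totals, much of the coverage of Sgcz lay in different places. Only 106 kb was covered in both lists, while 183 kb was covered in the control list alone and 156 kb in the deleted list alone. The bases in both lists were 23.8% of the bases in either, against 22.9% over all main chromosomes. Such overlap tends to rise with coverage by construction, and Sgcz was heavily covered, so these percents are not like for like. No allowance was made for this, here or in the peak shares that follow. Of the control peaks, 111 of 193 (57.5%, 95% Wilson interval 50.5 to 64.3%) overlapped a deleted-list peak. Of the deleted-list peaks, 117 of 211 (55.5%, 48.7 to 62.0%) overlapped a control peak. Over the whole lists these shares were 53.0% and 50.1%. The intervals cover counting error only. In Sgcz, peaks without a partner were narrower. Among control peaks their median width was 640 bp, where shared ones had 1222 bp. Among deleted-list peaks it was 769 bp, where shared ones had 1082 bp. By construction a wider peak overlaps another more easily, and no allowance was made for this.

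Along Sgcz, divided into 10 equal segments from the lower-coordinate end, 5 segments were covered less in the deleted list and 5 more. In the control list coverage ran from 12.2% in the last segment to 37.3% in the sixth. In the deleted list it ran from 14.1% in the last segment to 33.2% in the fourth. The sixth segment, from 38089773 to 38204159, differed most, at 37.3% and 14.8%. The 2 segments before it went the other way, from 24.1% to 33.2% and from 23.7% to 31.6%. The first and second were covered at 35.0% and 28.1%, and at 35.9% and 25.4%. In both lists the final segment, at the upper end of the gene, was the least covered.

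**Figure D3:**
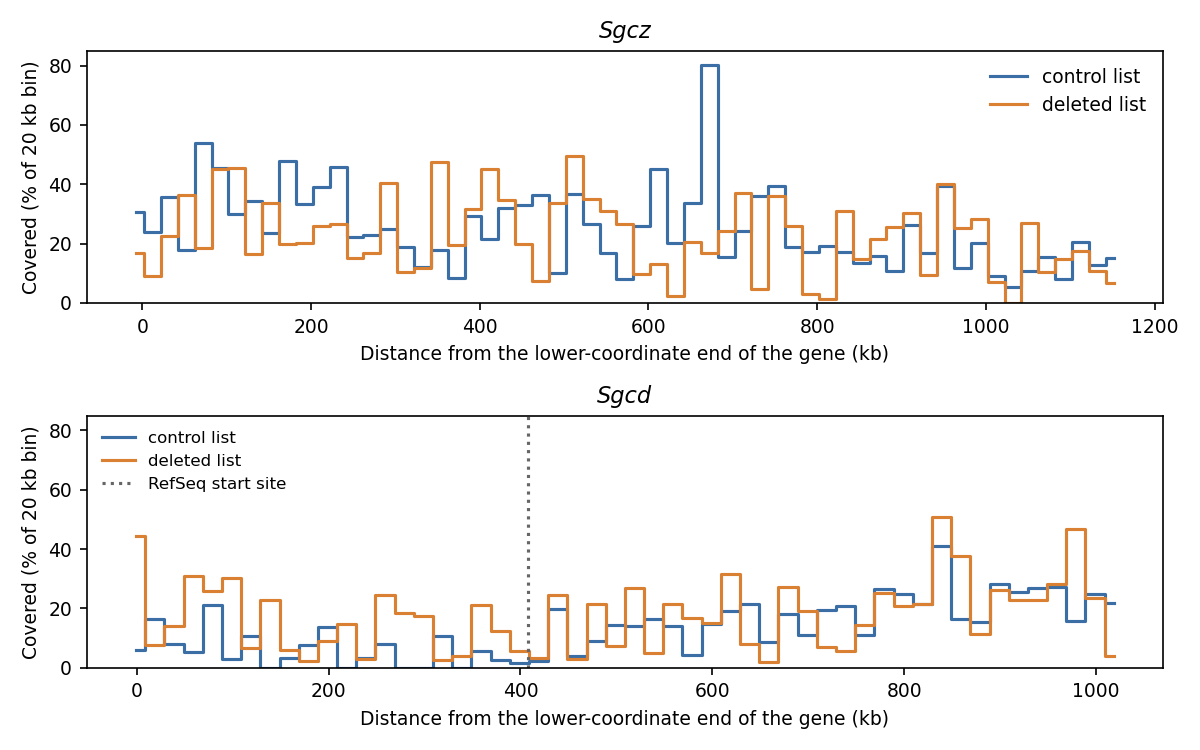
Percent of each 20 kb bin covered by H3K9me3 peaks along Sgcz (top) and Sgcd (bottom), against distance in kb from the lower-coordinate end of the gene, with 1 line per list; the dotted line is the RefSeq start site of Sgcd. In Sgcz the tallest control bin reaches 80.2% where the deleted list has 17%; in Sgcd the deleted list lies above the control list over most of the stretch left of the dotted line.

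The sixth segment held the widest control peaks. In the 20 kb bin from 38180001 to 38200000, coverage was 80.2% by control peaks and 17% by deleted-list peaks, the largest difference of the 59 such bins of the gene. The widest control peak of the gene lay there, from 38180804 to 38192025. It was 11.2 kb wide, wider than 99.9% of the control list, and the deleted list covered 15.4% of it. A second wide control peak, of 7.64 kb from 38133879 to 38141521, was covered at 25.3% in the deleted list. Both had an ordinary fold by the authors' values, at 2.63 and 2.51, where the median of the control list was 2.57. The widest deleted-list peak of Sgcz, of 5.02 kb from 38422896 to 38427916, was covered at 89.1% in the control list. Among the 20 kb bins the largest excess of the deleted list, 47.7% over 17.8%, lay from 37860001 to 37880000, where a deleted-list peak of 4.73 kb was covered at 26.3% in the control list.

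In bins of 100 kb, 3 of the 12 bins over Sgcz were lower in the deleted list by 10 points or more and 1 was higher by as much. Over the genome, 3.41% of bins with at least 1% covered in a list were lower by 10 points and 2.43% higher. Among bins covered at 10% or more, with chromosome 6 left out, these shares were 5.48% and 8.71%. The bin from 38000001 to 38100000 stood at 19.7% and 35.1%, and the adjoining bin above it at 41.0% and 12.6%. That last bin was lower by over 20 points, as were 0.790% of all such bins and 0.201% of those covered at 10% or more without chromosome 6. No bin of either gene was higher by 20 points, and 0.0622% and 0.223% of those bins were. No bin of Sgcd was lower by 10 points, and 2 of its 11 were higher by that much.

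**Figure D4:**
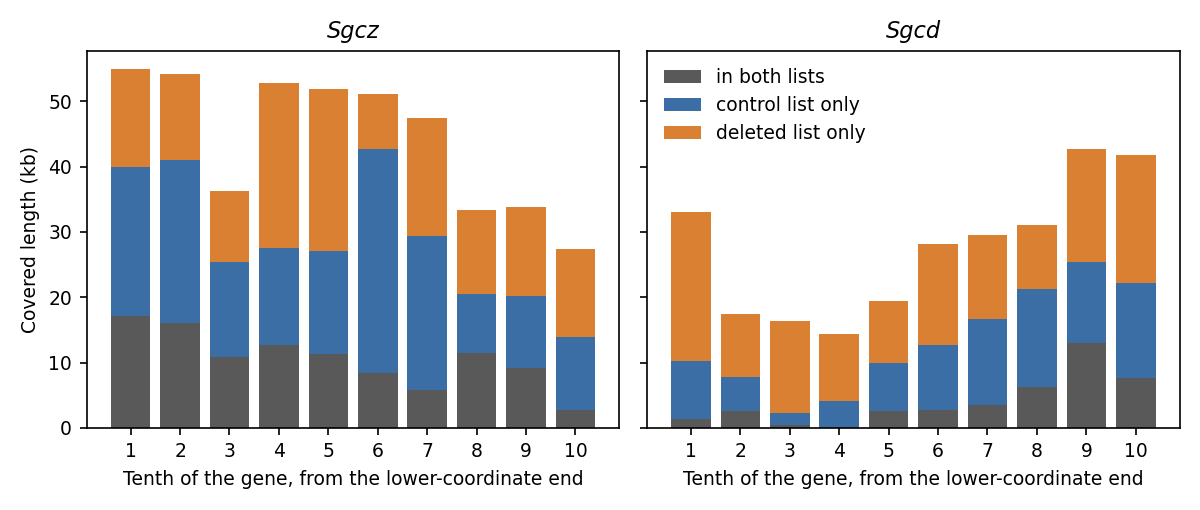
Covered length in kb in each of 10 equal segments of Sgcz (left) and Sgcd (right), numbered from the lower-coordinate end, stacked as bases in both lists, in the control list only and in the deleted list only. In Sgcz the sixth segment is mostly control-only, with 34.3 kb; in Sgcd the first is mostly deleted-only, with 22.8 kb.

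The peaks of highest fold in Sgcz were not the widest. The deleted-list peak of highest fold, from 37607001 to 37608012, had the authors' fold at 3.85 and −log10 q at 4.29. It stood at percentile 99.9 of fold in its own list and was covered at 88.8% in the control list. The control peak of highest fold, from 38002025 to 38002386, had a fold of 3.22 and −log10 q of 2.93, and had no partner in the deleted list. Sgcz had 24 control peaks at −log10 q of 2 or more, and 13 in the deleted list. Of these, 17 of 24 control peaks (70.8%) and 11 of 13 deleted-list peaks (84.6%) overlapped some peak of the other list. None of the 24 overlapped any of the 13, though few partners are left at this limit. Such shares were not counted over the whole lists at this limit, so whether those of Sgcz are unusual cannot be told. Peaks at or above their own list's median fold made up 42.5% of the control peaks of the gene and 31.8% of its deleted-list peaks.

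Several small genes lie inside Sgcz. Mir383, a microRNA gene from 38252133 to 38252202, lay wholly within a control peak of 2.47 kb, and in the deleted list the nearest peak was 0.716 kb away. Its window of 5 kb on both sides was covered at 46.2% and 9.08%. The leucine tRNA gene n-TLcag2 was outside peaks in both lists, 0.238 kb from the nearest control peak and 0.0750 kb from the nearest deleted-list peak. The pseudogene Gm16205 was covered at 20.2% and 0% of its length, and the pseudogenes Gm16204 and Gm18211 at 0% in both lists. The long noncoding RNA gene Gm40493, which overlaps the upper end of Sgcz, was covered at 8.47% and 8.38%.

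Sgcd, which encodes delta sarcoglycan, was covered more in the deleted list. It spans 1018 kb on chromosome 11 from 46971077 to 47989451. Its window held 126 control peaks and 152 deleted-list peaks, which covered 133 kb and 183 kb. The difference was 4.83 points and the deleted-to-control ratio 1.37. Chromosome 11 as a whole had a ratio of 1.15. The megabase above the gene was covered at 14.4% and 18.3%, and the megabase below at 5.91% and 7.55%. The nearest protein-coding genes were Timd4, an immune receptor gene 127 kb below, at 12.5% and 5.40%, and Rack1, a ribosome-associated scaffold gene 811 kb above, with no peak.

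With all deposited peaks the covered bases of Sgcd were shared between the lists to a smaller percent than those of Sgcz. Such overlap tends to rise with coverage by construction, and Sgcd was less covered than Sgcz. No allowance was made for this in the shares and ranks below. Bases of Sgcd in both lists came to 40.2 kb, with 93.1 kb in the control list alone and 143 kb in the deleted list alone. Those in both were 14.6% of the bases in either. Of 52 genes of 500 kb or more that were covered at 10% or more in a list, 43 had a higher percent than Sgcd and 9 a higher percent than Sgcz, and the median was 19.2%. Of the control peaks, 63 of 126 (50%, interval 41.4 to 58.6%) had a partner. Of the deleted-list peaks, 63 of 152 (41.4%, 33.9 to 49.4%) had one. These intervals overlapped those of Sgcz, and the difference was not tested. Among control peaks at or above the median fold the order turned, with 35.4% shared in Sgcd and 23.2% in Sgcz. The share over the whole list under this filter was not counted. With all deposited peaks, control peaks of Sgcd without a partner had a median width of 705 bp, where shared ones had 1133 bp. For deleted-list peaks these widths were 920 bp and 900.0 bp. No allowance was made for width here either.

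The RefSeq start site of Sgcd, at 47379325, is the 1 start site of the gene in the table used, and lies well inside the gene as annotated, which runs on for 610 kb above it. Use of start sites was not measured. Coverage differed on its 2 sides, a division made after the values were seen. Above the start site, 17.7% was covered in the control and 19.7% in the deleted list, by 97 and 99 peaks. Between the start site and the lower end, 5.97% was covered in the control and 15.0% in the deleted list, by 28 and 52 peaks. On that lower side 4.44 kb was covered in both lists, 19.9 kb in the control list alone and 57.0 kb in the deleted list alone. The start site itself sat in a peak-free stretch of 28.3 kb in the control and 23.3 kb in the deleted list, and the 250 bases printed above were 12.9 kb and 6.10 kb from the nearest peak.

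In 10 equal segments from the lower-coordinate end, Sgcd was covered more in the deleted list in 8 and less in 2. The third segment, from 47174752 to 47276588, stood at 2.25% and 14.3%, and the first, at the lower end, at 10.0% and 23.7%. The eighth segment went from 20.9% to 15.7%. In the fourth segment, next to the start site on its lower side, coverage was 4.07% and 10.1%, with no base in both lists. The longest gap without a control peak, 43.4 kb from 47236672 to 47280089, held 7 deleted-list peaks that covered 20.3% of it. Among 20 kb bins, 6 of 52 were higher by 20 points or more in the deleted list and 0 were lower by as much, where 2.64% and 3.34% were so over the genome. The largest difference was between 6.15% and 44.4%, from 46960001 to 46980000, across the lower end of the gene. In Sgcz 3 of 59 such bins were higher and 6 lower. The genome shares of 20 kb bins took in sparsely covered bins and chromosome 6. They are therefore not like for like with the bins of either gene. Shares among heavily covered 20 kb bins with chromosome 6 left out were not counted.

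Few peaks of either gene were of high confidence. Those at −log10 q of 2 or more made up 9.52% of control and 4.61% of deleted-list peaks in Sgcd, 12.4% and 6.16% in Sgcz, and 18.8% and 11.5% of the whole lists. In Sgcd 12 control peaks and 7 deleted-list peaks reached −log10 q of 2, and these covered 1.04% and 0.709% of the window, so the direction turned. The control peak of highest fold, from 47012558 to 47012943, had a fold of 3.43 and −log10 q of 3.35 and no partner in the deleted list. The deleted-list peak of highest fold, from 47805319 to 47806144, had a fold of 3.31 and lay wholly within control coverage. The widest deleted-list peak, of 5.41 kb from 47807776 to 47813186, was covered at 50.2% in the control list. The snRNA gene Gm23039, inside Sgcd, was covered at 53.4% by control peaks and 0% by deleted-list peaks, and the pseudogene Gm12176 at 0% in both.

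Other genes of 500 kb or more came close to these pairs of values. The likeness was the distance between the pairs of covered percent in the 2 lists, over 226 other genes. Nearest to Sgcz were Lrp1b, a lipoprotein receptor gene on chromosome 2 (24.0% and 22.0%, distance 1.24 points), Khdrbs2, an RNA-binding protein gene (23.0% and 22.1%, 2.09 points), and Ralyl, another RNA-binding protein gene (24.0% and 20.5%, 2.37 points). Nearest to Sgcd were Unc5d, a netrin receptor gene (14.0% and 18.0%, 1.05 points), Sntg1 (14.5% and 15.1%, 3.07 points) and Tenm2, a teneurin gene also on chromosome 11 (15.5% and 19.7%, 3.19 points). The median gene of this length was covered at 1.77% and 1.66%. Among the 52 of these genes covered at 10% or more in a list, as Sgcz and Sgcd were, 90% of differences lay between -13.3 and 7.17 points. Sgcz at -2.31 and Sgcd at 4.83 lay within this range. Its lower end takes in genes on chromosome 6, which held the lowest differences, down to -20.8 points. The lowest difference off that chromosome was -7.61 points, and the range without chromosome 6 was not counted. Over all 227 genes, chromosome 6 included and most of them far less covered, 90% of differences lay between -2.62 and 4.39 points.

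**Figure D5:**
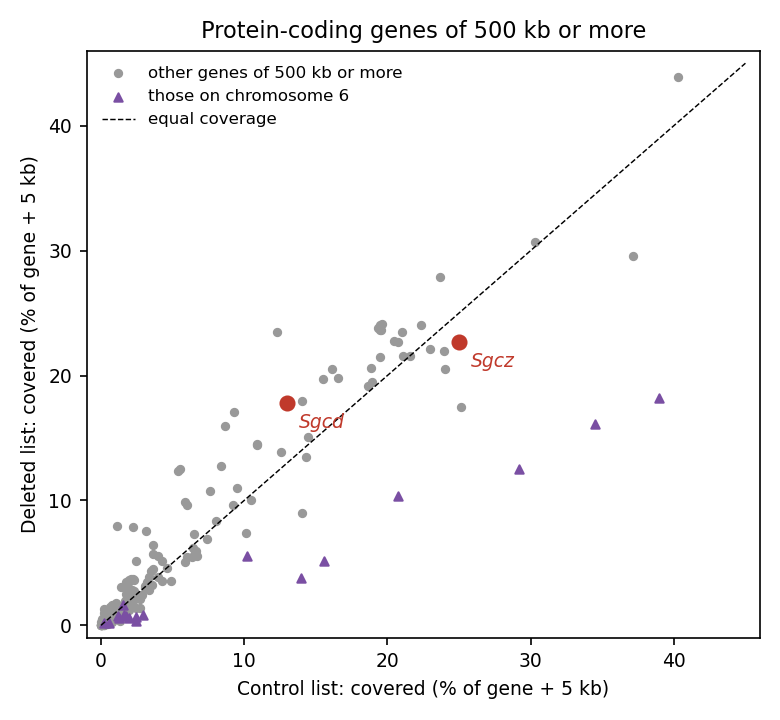
Each point is 1 of 227 protein-coding genes of 500 kb or more, with the percent of its window covered in the control list on the horizontal axis and in the deleted list on the vertical axis; triangles are genes on chromosome 6 and the dashed line is equal coverage. Sgcz (25.0%, 22.7%) lies a little under the line and Sgcd (13.0%, 17.8%) above it, and heavily covered genes on chromosome 6 lie far under it.

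Partners of the sarcoglycans ranged from peak-free to covered at the level of Sgcd. The list held 17 genes of, or linked to, the dystrophin-glycoprotein complex and of the enzymes that add sugars to dystroglycan. Dysf was on the planned list although it is not a member of that complex. In the control list 10 of the 17 had a peak in their window and in the deleted list 7, where 29% and 30.1% of all protein-coding genes did. The list held more long genes, with 8 of 17 under 100 kb against 19458 of 21887 protein-coding genes. A control peak was held by 23.9% of all genes under 100 kb and by 97.8% of those of 500 kb or more. The list's median coverage was 0.243% and 0%, and the median of all protein-coding genes was 0% in both lists. No peak was found in either list at Dag1 (dystroglycan itself), Sspn (sarcospan, which binds the sarcoglycans), Sntb2, Dtnb, Cav3, Pomt1 and Pomgnt1. These 7 were 41.2% of the list, where 64.6% of all protein-coding genes had no peak in either list. Of the 8 partners under 100 kb, 6 (75%) had none, near the 70% of all genes of that length.

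The covered partners included the long genes. Sntg1, a syntrophin gene known mainly from brain, was covered at 14.5% and 15.1% and was the 1 partner near the level of Sgcd. Dmd, the dystrophin gene on the X chromosome and the longest of the list at 2390 kb, had 7 peaks covering 0.203% in the control and 18 covering 0.480% in the deleted list. Covered length over the X chromosome as a whole had a ratio of 2.26. Utrn, which encodes the dystrophin relative utrophin, stood at 0.339% and 0.0753%. Lama2, the laminin chain to which dystroglycan binds, had 10 peaks in each list, covering 1.40% and 0.727%. Pomt2, an O-mannosyltransferase gene, was covered at 1.79% and 1.98%. Sntg1, Lama2 and Pomt2 were the 3 partners at 1% or more in a list, and of them only Lama2 was at least 1.5 times less covered in the deleted list. Over all protein-coding genes at that level, 30.9% were at least 1.5 times less covered and 35.8% at least 1.5 times more. The remaining covered genes of the list were Sntg2 at 0.243% and 0.422%, Nos1 at 0.363% and 0.268%, Dysf at 0.543% and 0%, Dtna at 0.500% and 0%, and Sntb1 at 0.339% and 0%.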

How the data were processed

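Deposited data were 2 lists of broad peaks of H3K9me3, native chromatin cut with micrococcal nuclease, 8 µg per immunoprecipitation per the labels' protocols. The submitters' processing notes name the build mm10 and the tools BWA 0.7.17-r1188, MACS2 and ChIPseeker 1.30.3. Caller settings, pooling and whether inputs were used: not given in the sources used here. The authors gave each peak a fold enrichment, a linear ratio, and a −log10 q-value, used here to describe and filter peaks within a list. Peak names and sample labels carry different replicate numbers, so each list was matched to its condition.

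Gene positions came from RefSeq (GRCm38.p6, the chromosomes of mm10). Windows added 5 kb to both ends of a gene, and overlap was at least 1 bp. Distances are from gene ends. Sgcz has no strand in the tables used, so both long genes are described from the lower-coordinate end. Neither peak GC nor repeat content was analysed here. The coverage counts were checked on simulated peaks. Named genes were the 5 genes, their neighbours, genes inside them, listed partners covered in a list, and the 3 long genes nearest in coverage; peak-free partners and marker genes were named in addition. Part of the planned partner list is not reported here, and its counts cover the reported genes. Members and lists were chosen with earlier results of these data known. Python 3.11.15, pandas 2.3.3, numpy 2.4.6, statsmodels 0.14.6 and matplotlib 3.10.9 were used.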

Additional observations from a re-analysis of the deposited data

How the results depend on the processing

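The windows of the 3 short genes held 0 peaks, so peak filters, the gene alone and joining within 5 kb could only leave 0. With 50 kb on both sides Sgcb had 3 peaks in each list and Sgca had 0. Sgce then had 3 control peaks and 1 deleted-list peak. Of 122 alternative values for 24 results, 65 stayed close to the value reported, 54 moved and 3 changed sign. The 65 include the values of the short genes that could only be 0, so they overstate how stable the results were. The alternative in which only the counted list was filtered was chosen after seeing the data. No paired analysis was possible because each condition had 1 library, and no library could be left out. By construction a stricter filter removes peaks and joining lengthens them; for other changes the cause was not tested. Unknown depth limits every comparison between the lists.

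At −log10 q of 2 or more, Sgcd turned to -0.329 points. It then had 12 control and 7 deleted-list peaks, 5 segments covered less, and a highest bin difference of 2.17. Sgcz then had 24 and 13 peaks, a lowest bin difference of -6.84 and a highest of 1.73. With both lists at this limit 0% of peaks were shared in either gene. With only the counted list limited, the shares were 70.8% and 84.6% in Sgcz and 66.7% and 71.4% in Sgcd. At −log10 q of 3 or more, Sgcd was at -0.188 points with 2 control and 0 deleted-list peaks, and Sgcz at 0.0877 points with 0 and 1, with 0% shared. At or above the median fold, Sgcd differed by 2.69 points (48 and 65 peaks, 35.4% and 26.2% shared) and Sgcz by -4.78 points (82 and 67 peaks, 23.2% and 29.9% shared). Shared percents over the whole lists were not counted under any of these limits.

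With peaks joined within 5 kb, Sgcd differed by 12.9 points with 62 and 60 joined peaks, and Sgcz had 57 and 55. Requiring 50% of the peak gave shares of 36.8% and 36.5% in Sgcz and 26.2% and 22.4% in Sgcd. Allowing 5 kb gave 95.9% and 98.1%, and 93.7% and 86.2%. Bins of 20 kb differed by -63.2 to 29.9 points in Sgcz and by -17.7 to 38.2 in Sgcd. Divided by the ratio of its chromosome, the log2 ratio of Sgcd was 0.26 in place of 0.46, and that of Sgcz -0.19 in place of -0.14.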
